A study of Mus musculus with 4 samples.

Results

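Serum carrier and lipoprotein genes encode the proteins by which early endoderm, yolk sac and liver load hormones, retinol, iron and lipid into body fluids and take them up again. The set comprised 10 genes, chosen by name with earlier results of these data known. All their probe sets that the platform annotation pairs with a single gene symbol were read with no filter on intensity. That gave 23 probe sets for 9 genes, among 45037 probe sets and 18193 genes in all. Trf, the gene of transferrin, which carries iron, was named only on a probe set that lists another gene as well, so no value is given for it.

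The samples were mouse embryo tissues of strain ARC/s at embryonic day 8.5, with 4 to 5 somites (3 to 5 in the source label), and 15 to 20 tissue pieces were pooled for each. Foregut endoderm of the anterior intestinal portal was set against a mixture of heart mesoderm, head mesoderm and head ectoderm (mesoderm/ectoderm below), with 2 samples of each. Samples numbered 1 were dissected by hand and samples numbered 2 after trypsin and pancreatin, so number and dissection method cannot be told apart, and no label reports a genetic change or treatment of the embryos. A description field calls foregut endoderm 2 ectoderm, against its title, source and tissue labels.

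In the mouse, the visceral endoderm of the yolk sac feeds the early embryo: it takes up maternal protein through the receptor pair cubilin and amnionless and secretes alpha-fetoprotein, transthyretin, retinol-binding protein and lipoproteins. The fetal liver, which buds from the ventral foregut, later makes the same secreted proteins. Lipoproteins form when microsomal triglyceride transfer protein loads lipid onto apolipoprotein B in the endoplasmic reticulum, and apolipoproteins A1 and M ride mainly on high-density lipoprotein.

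Values are log2 of the deposited probe set intensity, named GC-RMA in the series' design text and RMA in the submitters' processing notes. Each array had a lowest value between 2.249 and 2.284, and 41.4% to 44.8% of its probe sets were no more than 0.1 above it, a level here called the floor. A probe set was called measured when it exceeded 5 on at least 2 of the 4 arrays. Of 12 genes listed as foregut endoderm markers, 11 were at least 2-fold higher in foregut endoderm in both replicates, where 1.81% of all genes were. This list was chosen with earlier results of these data known, so the count is no independent check. The remaining marker, Nkx2-1, was at the floor on all 4 arrays. The mesoderm/ectoderm samples were unlike each other: 0 of 12 heart muscle markers exceeded 5 in mesoderm/ectoderm 1, against 12 of 12 in mesoderm/ectoderm 2, while 9 of 12 did so in foregut endoderm 1 and 4 of 12 in foregut endoderm 2. Each member's value is therefore also given without single arrays. In pooled tissue, fewer cells of a type and less RNA per cell cannot be told apart.

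The members fell into 4 measured genes, Afp, Ttr, Rbp4 and Mttp, and 5 genes without a measured probe set, Apoa1, Apob, Apom, Amn and Cubn. Among all genes, 42.9% were measured by their brightest probe set. Of the 9 genes, 4 (Afp, Ttr, Rbp4 and Mttp) were at least 2-fold higher in foregut endoderm in both replicates, against a background of 1.81% of 18193 genes, and 0 were at least 2-fold lower in both. The set was chosen with earlier results of these data known, so this share describes the set and is not a test. The count of genes at least 2-fold higher was 3 without foregut endoderm 2 or without mesoderm/ectoderm 1. Rbp4 then fell short of 2-fold between foregut endoderm 1 and mesoderm/ectoderm 2, which differed by 0.52. Its mean difference without mesoderm/ectoderm 1 was 1.91, still past 2-fold.

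**Figure D1:**
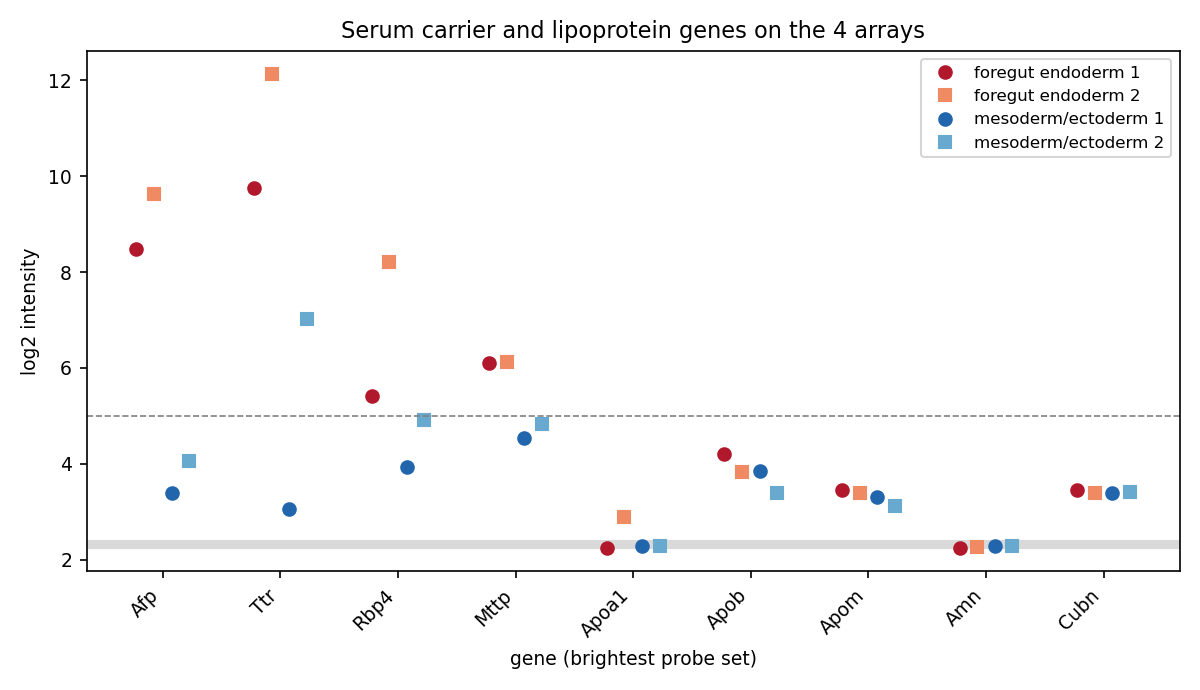
Log2 intensity (vertical axis) of the brightest probe set of each of the 9 genes on each array, with foregut endoderm in red and orange and mesoderm/ectoderm in blue; the dashed line is at 5 and the grey band is the floor. Afp, Ttr, Rbp4 and Mttp lie above 5 on both foregut endoderm arrays, whereas the highest point of the other 5 genes is 4.20.

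Afp encodes alpha-fetoprotein, a major serum protein of the early embryo and a carrier related to albumin. Its brightest probe set, 1416645_a_at, had log2 intensities of 8.48 and 9.63 in foregut endoderm 1 and 2, against 3.38 and 4.05 in mesoderm/ectoderm 1 and 2. Both foregut arrays stood above both of the others, the nearest pair by 4.43. The mean was 9.06 ± 0.81 in foregut endoderm and 3.72 ± 0.47 in mesoderm/ectoderm (SD, n = 2 each). The difference was 5.10 in replicate 1 and 5.58 in replicate 2, a mean of 5.34 ± 0.57 (SE from limma), or 40.5-fold. Here and below, the SE is from the fit with tissue alone, which leaves out the pairing by number. With replicate number added to the fit, the SE was 0.26 for Afp, 0.52 for Ttr, 0.58 for Rbp4 and 0.24 for Mttp. Leaving out single arrays gave 4.77 to 5.92.

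The 5 probe sets of Afp did not report alike. Probe set 1436879_x_at had 6.41 and 7.43 in foregut endoderm, against 2.28 (at the floor) and 3.12 in mesoderm/ectoderm, and 1436881_x_at had 6.38 and 4.83, against 3.53 and 3.73. Probe set 1416646_at left the floor in foregut endoderm 2 alone, at 3.87, and 1436880_at was at the floor on all 4 arrays. Averaged over the 5 probe sets the difference of Afp was 2.46 log2 units, so its size rests on the brighter ones.

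Ttr encodes transthyretin, which carries thyroid hormone and, bound to retinol-binding protein, retinol. Probe set 1454608_x_at had 9.76 and 12.13 in foregut endoderm, against 3.06 and 7.03 in mesoderm/ectoderm. The tissues did not overlap, but each sample numbered 2 was far above its partner numbered 1, by 2.36 in foregut endoderm and by 3.97 in mesoderm/ectoderm. The mean was 10.95 ± 1.67 in foregut endoderm and 5.04 ± 2.81 in mesoderm/ectoderm (SD, n = 2 each). The differences were 6.70 in replicate 1 and 5.10 in replicate 2, with a mean of 5.90 ± 1.73 (SE from limma), or 59.7-fold. Without mesoderm/ectoderm 1 this mean was 3.92, and without mesoderm/ectoderm 2 it was 7.89.

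Of the other probe sets of Ttr, 1455913_x_at differed by 6.14 and 5.17 and 1459737_s_at by 4.47 and 5.42 in replicates 1 and 2. The remaining one, 1451580_a_at, had 3.21 in foregut endoderm 1 and 8.07 in foregut endoderm 2, against 2.87 and 3.40 in mesoderm/ectoderm 1 and 2. In replicate 1 this probe set thus differed by only 0.35, where the others of the gene differed by 4.47 to 6.70, and in replicate 2 it differed by 4.67. All 4 probe sets had positive differences in both replicates.

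The high Ttr value of mesoderm/ectoderm 2 stood beside higher values of some endoderm markers there. Summed intensity of the 12 foregut endoderm markers was 6890 and 16800 in foregut endoderm, against 549 and 1310 in mesoderm/ectoderm 1 and 2. Hhex had 3.76 and 6.64 and Epcam 6.38 and 9.04 in mesoderm/ectoderm 1 and 2, whereas Pax9 was at the floor in both and Foxa1 had 4.13 and 4.89. Cdh1 was nearly level at 7.52 and 7.67, and Prdm1 (5.14 and 4.87) and Tmprss2 (2.53 and 2.43) were slightly lower in mesoderm/ectoderm 2. In each of these samples 5 of the 12 markers exceeded 5. Whether endoderm cells contributed to the Ttr value of mesoderm/ectoderm 2 was not tested.

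Rbp4 encodes the plasma carrier of retinol, which binds transthyretin in the circulation. Its only probe set, 1426225_at, had 5.43 and 8.21 in foregut endoderm, against 3.94 and 4.91 in mesoderm/ectoderm. Foregut endoderm 1 lay just 0.52 above mesoderm/ectoderm 2, the smallest gap among the measured members. The mean was 6.82 ± 1.97 in foregut endoderm and 4.43 ± 0.69 in mesoderm/ectoderm (SD, n = 2 each). Differences were 1.48 and 3.30 in replicates 1 and 2, with a mean of 2.39 ± 1.13 (SE from limma), or 5.26-fold. Without foregut endoderm 2 the mean was 1.00, and without foregut endoderm 1 it was 3.79.

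Mttp encodes microsomal triglyceride transfer protein, which loads lipid onto apolipoprotein B. Probe set 1419400_at had 6.10 and 6.13 in foregut endoderm, against 4.54 and 4.84 in mesoderm/ectoderm. Samples of the same tissue lay close together, at means of 6.12 ± 0.02 in foregut endoderm and 4.69 ± 0.21 in mesoderm/ectoderm (SD, n = 2 each). The differences of 1.56 and 1.29 gave a mean of 1.43 ± 0.32 (SE from limma), or 2.69-fold, and leaving out single arrays moved it only between 1.28 and 1.57. The other probe set, 1419399_at, stayed between 2.448 and 2.483 on all 4 arrays, and averaged over both the difference was 0.70.

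**Figure D2:**
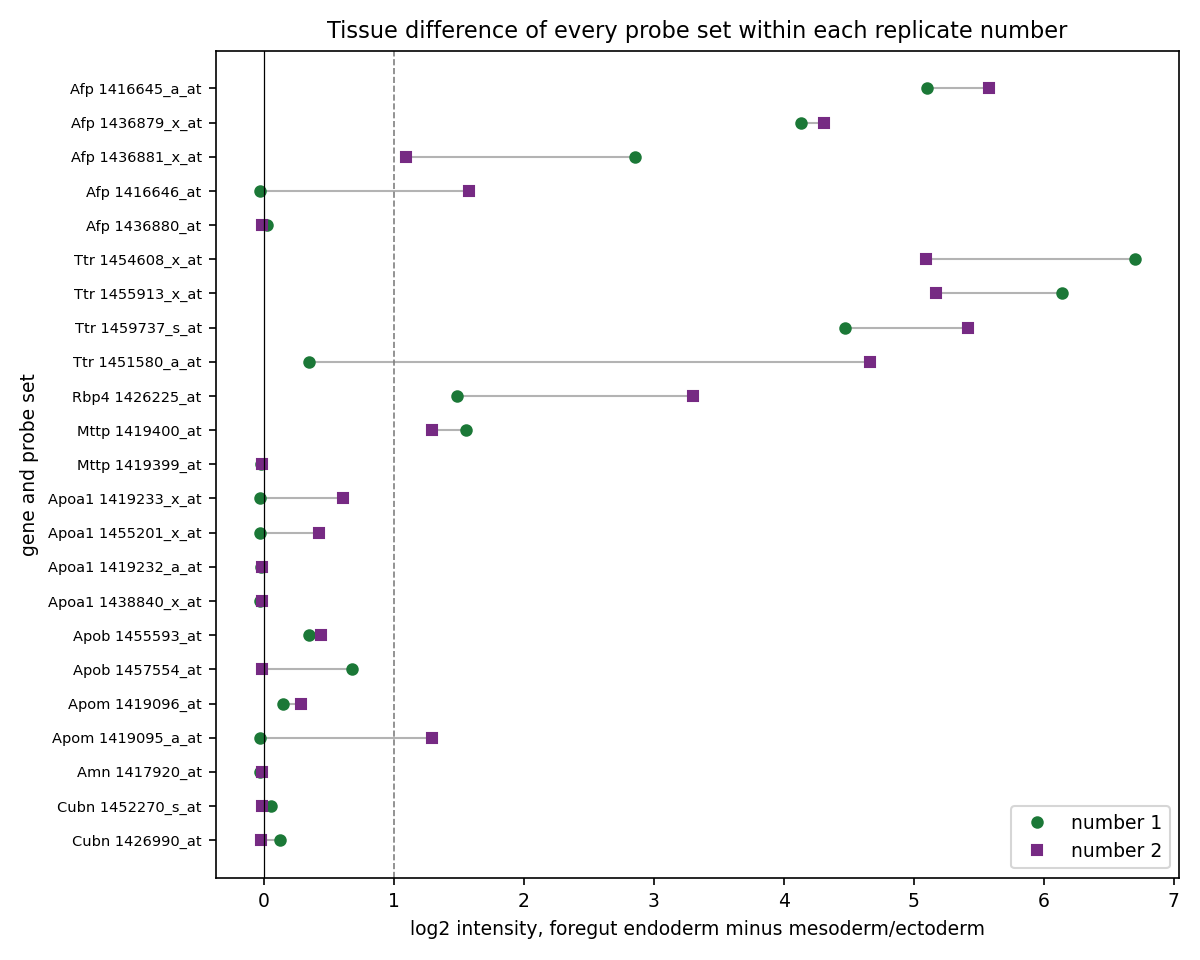
Log2 intensity of foregut endoderm minus mesoderm/ectoderm (horizontal axis) for each of the 23 probe sets, with replicate 1 as circles and replicate 2 as squares; the dashed line marks 2-fold. Probe sets of Ttr and Afp reach 6.70 and 5.58, 8 probe sets lie past 2-fold in both replicates, and those of Apoa1, Amn and Cubn stay between -0.03 and 0.61.

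Apolipoproteins of the set had no measured probe set. Apob, the structural protein of very low density and low density lipoproteins and the acceptor of the lipid that Mttp transfers, had 4.20 and 3.84 in foregut endoderm, against 3.85 and 3.40 in mesoderm/ectoderm (1455593_at). These were the highest values among the 5 unmeasured genes, and the samples overlapped, since foregut endoderm 2 lay below mesoderm/ectoderm 1. Its other probe set, 1457554_at, had 2.96 in foregut endoderm 1 and was at the floor on the other 3 arrays. Apob differences were 0.35 and 0.44 on the brighter probe set.

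Apoa1 is the main protein of high-density lipoprotein. Its probe sets 1419232_a_at and 1438840_x_at were at the floor on all 4 arrays, and 1419233_x_at and 1455201_x_at left it only in foregut endoderm 2, at 2.89 and 2.71. Apom encodes a small lipocalin of high-density lipoprotein that carries sphingosine-1-phosphate. It had 3.46 and 3.40 in foregut endoderm, against 3.32 and 3.12 in mesoderm/ectoderm, on 1419096_at. Both foregut values were above both others, the nearest pair by 0.08. Its probe set 1419095_a_at had 3.58 in foregut endoderm 2 and was at the floor elsewhere, which gave a replicate 2 difference of 1.29.

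The uptake receptor pair was not measured either. Amn, which encodes amnionless, the membrane anchor of the complex, was at the floor on all 4 arrays, with 2.249 and 2.266 in foregut endoderm and 2.280 and 2.284 in mesoderm/ectoderm. Cubn, which encodes cubilin, the ligand-binding part, had 3.46 and 3.39 in foregut endoderm, against 3.40 and 3.40 in mesoderm/ectoderm, on 1452270_s_at. Its other probe set reached at most 2.41. Neither gene separated the tissues, and at this signal a low level cannot be told from none.

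No member passed the test across all probe sets. With limma and Benjamini-Hochberg adjustment over 13288 measured probe sets, 0% were called higher and 0% lower in foregut endoderm, while an unadjusted p under 0.05 was reached by 395 on the higher and 105 on the lower side. Adjusted p from limma was 0.724 for Afp, which was higher in 2 of 2 replicates, 0.956 for Mttp and 1 for Ttr and Rbp4, likewise higher in 2 of 2. The labels name pools and not litters, so p-values measure the spread between these samples only. Of the 23 probe sets, 9 had both foregut endoderm values above both mesoderm/ectoderm values, against 6.74% of all probe sets, and 8 were at least 2-fold higher in both replicates, against 1.28%. Probe sets of the same gene are not independent: 3 of the 8 were of Afp and 3 of Ttr. The 9 include Apom 1419096_at, with a gap of only 0.08. At 4-fold, 2 of 9 genes, Afp and Ttr, were higher in both replicates, against 0.473% of genes. As the set was chosen with earlier results known, these shares only describe it.

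Among the measured members, those with serum carrier products also differed between the foregut samples. Foregut endoderm 2 exceeded foregut endoderm 1 by 1.15 for Afp, 2.36 for Ttr and 2.79 for Rbp4, but by only 0.03 for Mttp. Within Afp, probe set 1436881_x_at went the other way, by -1.55. A 2-fold excess of this kind occurred in 7.83% of all genes. In mesoderm/ectoderm, sample 2 exceeded sample 1 by 0.67 for Afp, 3.97 for Ttr, 0.97 for Rbp4 and 0.30 for Mttp, and a 2-fold excess was found in 11.3% of all genes. With 1 array for each number and tissue there was no test of these shifts. Marker lists differed between the foregut samples too. Summed intensity was 384 in foregut endoderm 2, against 2520 in foregut endoderm 1, for 9 head mesenchyme genes. It was 190 against 758 for 10 endothelial genes, 229 against 2400 for 9 red blood cell genes and 1160 against 6860 for 12 heart muscle genes, in the same order of samples. It was 4550 against 2030 for 12 genes of the anterior neural plate and 16800 against 6890 for 12 foregut and definitive endoderm genes. The neural plate sums rested mostly on Sox2 and Otx2. The median log2 intensity of that list went the other way, at 2.99 in foregut endoderm 2 against 4.00 in foregut endoderm 1. The red blood cell sums rested mostly on Hbb-bh1 and Hbb-y, and the median of that list was 2.34 in both foregut samples. The part of these cell types in the shifts was not tested.

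Sequence just upstream of the gene starts was read for members above and below the measuring threshold. RefSeq windows (GRCm38.p6) were found for 8 of the 10 genes, and the 250 bases before each annotated start were searched on both strands for the forkhead letters TGTTTAC and TGTTTGC, the letters GTTAAT of HNF1 sites, the GATA letters AGATAA and the letters AAAGTCC of HNF4 sites. These factors act in endoderm and liver. The windows that held a match are shown because they include both measured genes (Afp, Rbp4) and unmeasured ones (Apoa1, Apob). Each runs 5′ to 3′ on the strand of its gene, with matches in capitals.
Afp, chr5:90490464-90490713, plus strand: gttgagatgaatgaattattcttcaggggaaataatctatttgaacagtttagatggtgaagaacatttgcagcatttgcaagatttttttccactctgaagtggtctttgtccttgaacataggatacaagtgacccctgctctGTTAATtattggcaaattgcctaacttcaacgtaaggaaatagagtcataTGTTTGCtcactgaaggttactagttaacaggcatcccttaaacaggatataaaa
Rbp4, chr19:38125322-38125571, minus strand: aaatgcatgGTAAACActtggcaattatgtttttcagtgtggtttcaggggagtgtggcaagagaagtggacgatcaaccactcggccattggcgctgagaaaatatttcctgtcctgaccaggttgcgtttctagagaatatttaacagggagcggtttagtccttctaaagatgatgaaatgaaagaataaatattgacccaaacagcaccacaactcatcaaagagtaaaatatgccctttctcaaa
Apoa1, chr9:46228380-46228629, plus strand: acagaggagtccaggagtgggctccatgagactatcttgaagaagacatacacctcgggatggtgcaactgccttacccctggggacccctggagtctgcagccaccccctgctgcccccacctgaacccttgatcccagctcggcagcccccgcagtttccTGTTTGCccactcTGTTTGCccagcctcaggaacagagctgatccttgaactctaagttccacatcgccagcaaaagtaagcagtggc
Apob, chr12:7977427-7977676, plus strand: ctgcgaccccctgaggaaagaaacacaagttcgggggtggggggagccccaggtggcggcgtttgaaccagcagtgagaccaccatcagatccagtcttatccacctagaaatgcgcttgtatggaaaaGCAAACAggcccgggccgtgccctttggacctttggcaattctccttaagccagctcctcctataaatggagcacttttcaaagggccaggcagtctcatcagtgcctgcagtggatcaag

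TGTTTGC occurred in the windows of Afp, Apoa1 (at 2 places) and Apob, the last on the opposite strand, and in 4.3% of 32851 RefSeq windows of the same length. GTTAAT occurred in that of Afp and in 6.43% of windows. TGTTTAC occurred on the opposite strand in the Rbp4 window shown and in 3.17% of windows. AGATAA, found in 9.99% of windows, and AAAGTCC, found in 3.58%, were not among the letters of any member window. The other Rbp4 window and those of Mttp, Apom, Amn and Cubn had no match, so measured and unmeasured members occurred on both sides.

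Transcription regulators of endoderm and liver were looked at beside the carriers. Of 16 genes in that list 14 had a probe set. Of these 14, 4 (Foxa1, Foxa2, Hhex and Sox17) were at least 2-fold higher in foregut endoderm in both replicates, where 1.81% of all genes and 3.54% of measured genes were. All 4 are also among the foregut endoderm markers above, and both lists were chosen with earlier results known. The same 4 were the measured ones, and Foxa1 and Foxa2 exceeded 5 on the foregut arrays only. Among the unmeasured genes, Gata4 and Gata6, zinc finger factors of endoderm and heart, ran opposite ways in the replicates, with differences of 1.54 and -0.99 and of 2.78 and -0.87. Foxa1, a forkhead pioneer factor of gut endoderm, had 10.92 and 10.82 in foregut endoderm, against 4.13 and 4.89 in mesoderm/ectoderm. Foxa2, its paralog, had 7.52 and 8.61, against 4.40 and 4.58. Both forkhead genes thus separated the tissues without overlap. Hhex, a homeobox factor needed for the liver bud, had 7.05 and 9.58 in foregut endoderm, against 3.76 and 6.64 in mesoderm/ectoderm, and its mean difference lay between 1.68 and 4.56 without single arrays. Sox17, a factor of definitive endoderm, differed by 3.30 and 1.58. Hnf4a, a nuclear receptor that drives apolipoprotein genes in liver and yolk sac, was at 2.71 and 2.53 in foregut endoderm and at 2.53 and 2.54 in mesoderm/ectoderm. None of the list passed limma's test, with a lowest adjusted p of 0.724.

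Other secreted liver proteins gave little signal. Of 23 genes 19 had a probe set, 11 of these were at the floor on all 4 arrays, and 1 was measured. That gene was Clu, which encodes clusterin, an extracellular chaperone also called apolipoprotein J. It had 9.60 and 9.60 in foregut endoderm, against 7.78 and 7.81 in mesoderm/ectoderm. The samples of a tissue were nearly level, and the difference of 1.82 and 1.79 in replicates 1 and 2 gave a mean of 1.81 ± 0.30 (SE), with an adjusted p of 0.832 in limma. Its other 3 measured probe sets differed in the same direction. Alb, the gene of serum albumin, was at 2.79 and 2.76 in foregut endoderm and at 2.77 and 2.28 in mesoderm/ectoderm.

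Of 15 genes listed as other apolipoproteins, all with a probe set, 4 were measured and 5 were at the floor on all arrays. The list counts Apobec1, an enzyme gene and not an apolipoprotein, which was unmeasured. Apoa5, a regulator of triglyceride breakdown in plasma, had 5.12 and 5.04 in foregut endoderm, just above the threshold, against 3.05 and 3.01 in mesoderm/ectoderm, differences of 2.07 and 2.02 (adjusted p = 0.801 in limma). It was the only one of the 4 with the same sign in both replicates. Apoe, the ligand of lipoprotein receptors, had 6.20 and 7.81 in foregut endoderm, against 3.37 and 9.15 in mesoderm/ectoderm, so that its differences of 2.83 and -1.33 ran opposite ways. The mitochondrial proteins Apoo and Apool made up the rest, with differences between -0.62 and 0.53.

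Genes of lipoprotein assembly and remodelling had no common direction. Of 22 genes 17 had a probe set and 12 were measured, of which 3 were higher and 3 lower in foregut endoderm in both replicates, where 37.0% and 24.3% of measured genes were. None reached 2-fold in both. Lpl, the lipase that releases fatty acids from lipoproteins, differed by 0.16 and -1.54. Medians over the 12 were -0.03 and 0.12. P4hb, protein disulfide isomerase and the partner subunit of Mttp, had 12.15 and 12.12 in foregut endoderm, against 12.18 and 12.00 in mesoderm/ectoderm. Surf4, a cargo receptor for lipoprotein export, differed by 0.86 and 0.36, with 2 of its 4 other measured probe sets in the same direction. Preb, a factor of secretory vesicle coats, differed by 0.33 and 0.30, Sar1b, the coat GTPase of lipoprotein export, by -0.08 and -0.50, and Dgat2, an enzyme of triglyceride synthesis, by -0.03 and -0.59. Single arrays moved the mean of Sar1b between -1.04 and 0.46. Limma's adjusted p was 1 for these 4 genes.

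Uptake receptors other than cubilin were measured in part. Of 16 genes 13 had a probe set and 8 were measured. Of the 8, 5 were higher and 2 lower in foregut endoderm in both replicates, where 37.0% and 24.3% of measured genes were. Lrp2, which encodes megalin, the endocytic partner of cubilin, had 7.04 and 5.39 in foregut endoderm, against 8.57 and 6.66 in mesoderm/ectoderm. Within each number foregut endoderm was lower, by -1.53 and -1.27, although foregut endoderm 1 lay above mesoderm/ectoderm 2, and leaving out single arrays gave means of -2.35 to -0.45. It was the only gene of the list past 2-fold in both replicates, where 1.24% of measured genes were at least 2-fold lower. Lrp1, a scavenging lipoprotein receptor, differed by 0.90 and 0.95 and Scarb1, the receptor of high-density lipoprotein, by 0.86 and 0.74. Cd320, the cellular receptor for transcobalamin, differed by 0.86 and 0.49, but its mean was -0.44 without foregut endoderm 2 and -0.63 without mesoderm/ectoderm 1. Limma's adjusted p was 1 for each of these. The megalin adaptor Dab2 differed by 2.20 and -0.45.

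Of 14 other genes of retinoid and iron handling, 12 had a probe set and 4 were measured. Heph, a copper oxidase of iron export, had 9.52 and 9.51 in foregut endoderm, against 8.45 and 7.79 in mesoderm/ectoderm. Crabp2, which carries retinoic acid to its nuclear receptors, had 7.99 and 10.46 in foregut endoderm, against 9.58 and 12.14 in mesoderm/ectoderm. It was lower within each number, by -1.60 and -1.69, while the tissues overlapped across numbers and single arrays moved the mean between -2.92 and -0.36. Limma's adjusted p was 1 for both. Slc40a1, the iron exporter ferroportin, exceeded 5 on 1 array only, with 4.06 and 6.06 in foregut endoderm, against 2.96 and 2.87 in mesoderm/ectoderm.

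**Figure D3:**
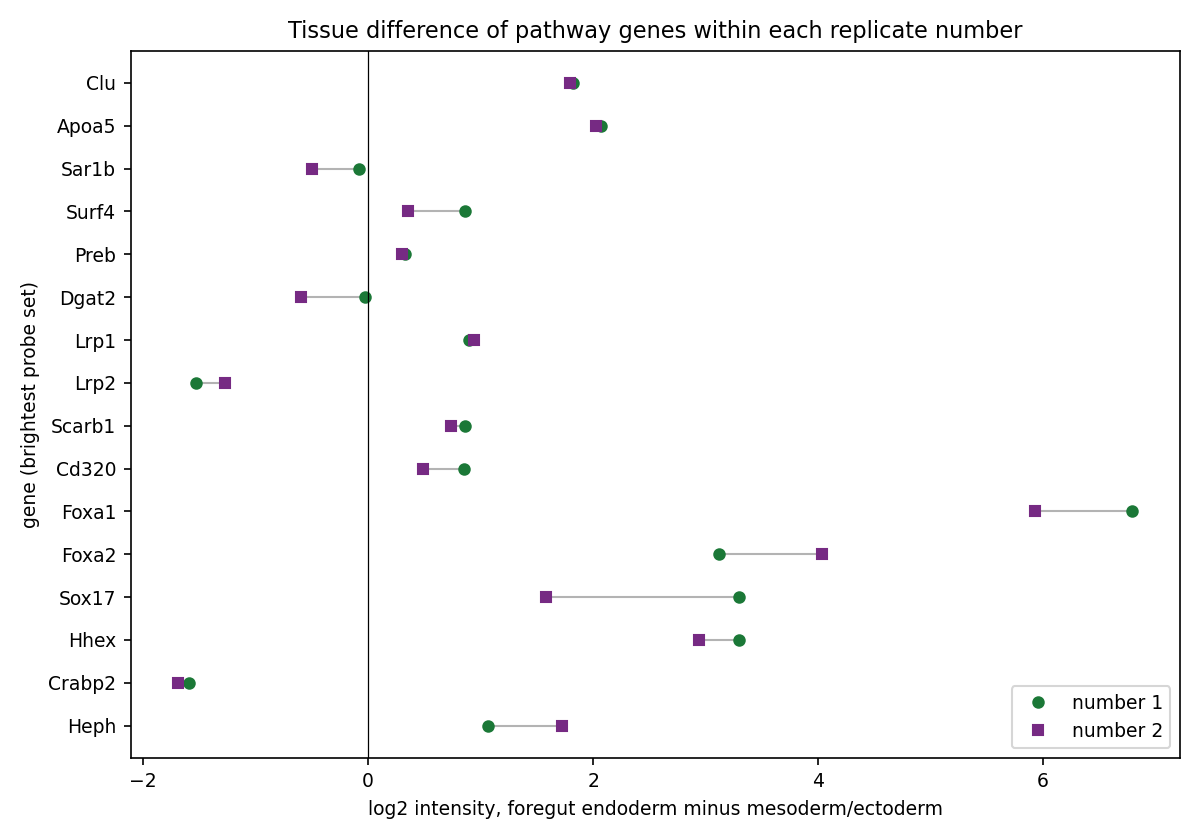
Log2 intensity of foregut endoderm minus mesoderm/ectoderm (horizontal axis) for the 16 genes named from the lists by rule, with replicate 1 as circles and replicate 2 as squares. Foxa1 reaches 6.79, Clu and Apoa5 have nearly the same value in both replicates, and Lrp2 and Crabp2 lie below -1 in both.

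Yolk sac visceral endoderm, which lies next to the embryo and makes these carriers, was followed by a list of 14 other genes, some of them also in the lists above. Its summed intensity was 764 and 4520 in foregut endoderm, against 273 and 966 in mesoderm/ectoderm, and 3 and 3 of its genes exceeded 5 in foregut endoderm 1 and 2, against 1 and 4 in mesoderm/ectoderm 1 and 2. The median log2 intensity of the list was 3.26 and 2.75 in foregut endoderm, against 2.59 and 3.34 in mesoderm/ectoderm, so the tissues overlapped by this measure. Spink1 and Rhox5 were the brightest of the list in foregut endoderm 2. Apoa4, Fxyd2 and Slc2a2 were at the floor on all 4 arrays, as was Amn. Of the 14, 2 (Spink1 and Ctsh) were at least 2-fold higher in foregut endoderm in both replicates, against 1.81% of all genes. Ctsh reached at most 4.83, below the threshold of 5. Spink1, a trypsin inhibitor also expressed in gut epithelium, had 8.54 and 11.59 in foregut endoderm, against 2.70 and 6.34 in mesoderm/ectoderm. Rhox5, a homeobox gene of extraembryonic tissue, had 7.69 and 10.09 in foregut endoderm, against 7.50 and 7.50 in mesoderm/ectoderm, and so stood apart in foregut endoderm 2 alone. Sox7 and Apoc2 did not exceed 4.84 on any array. The part of yolk sac tissue in the carrier values was not tested.

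**Figure D4:**
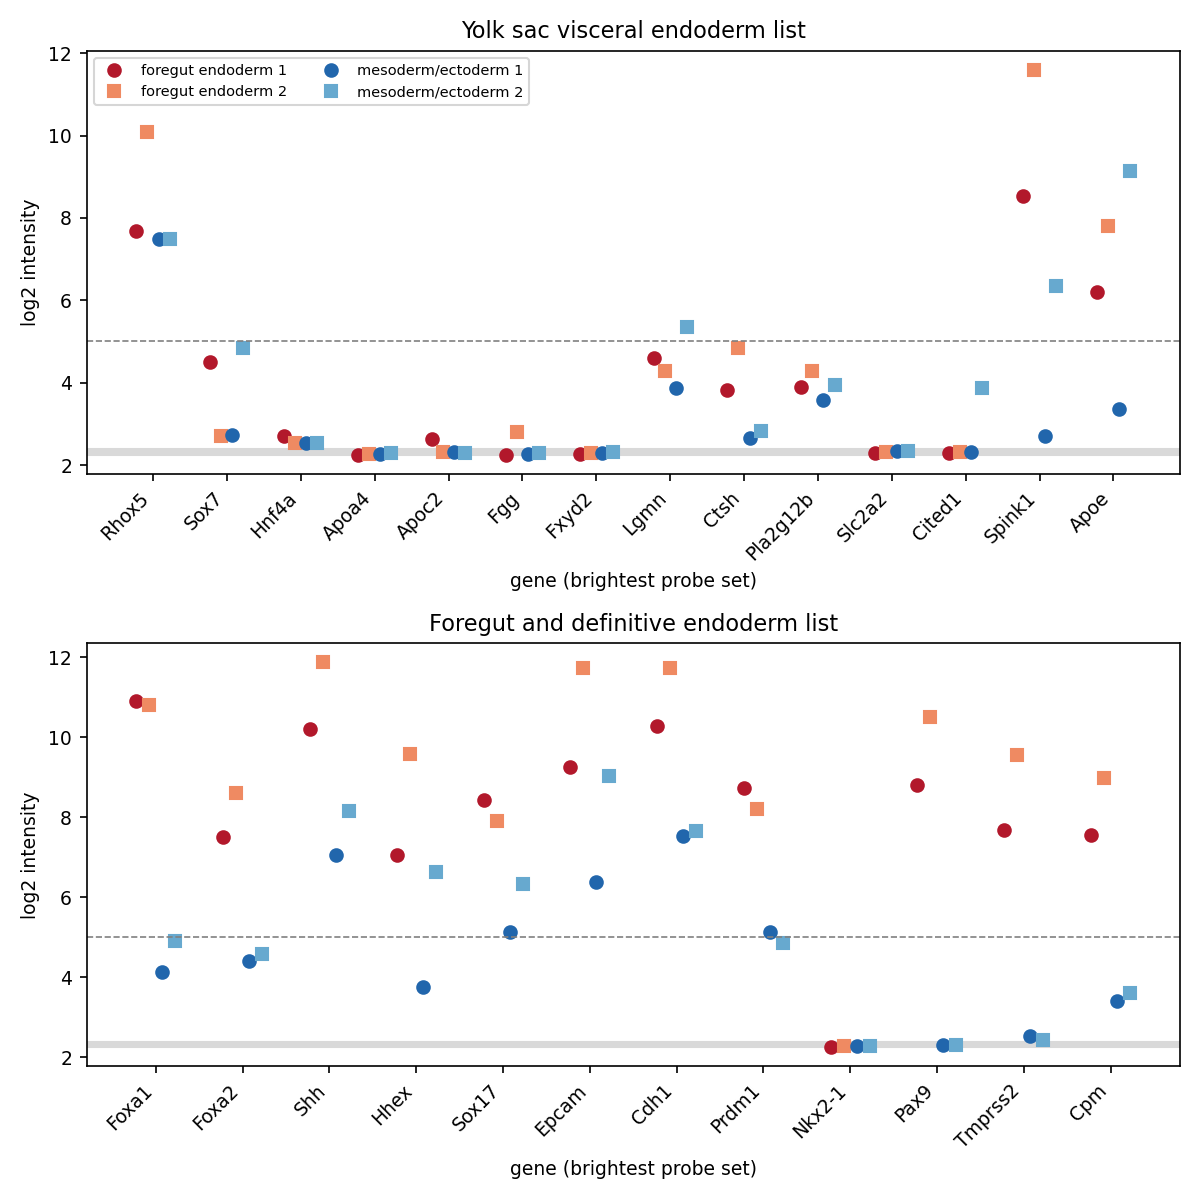
Log2 intensity (vertical axis) on each array of 14 yolk sac visceral endoderm genes (upper panel) and 12 foregut and definitive endoderm genes (lower panel), with foregut endoderm in red and orange and mesoderm/ectoderm in blue; the dashed line is at 5 and the grey band is the floor. Spink1 and Rhox5 are high in foregut endoderm 2, at 11.59 and 10.09, while Apoa4, Fxyd2 and Slc2a2 lie in the band on all arrays.

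The genes with the most similar profiles were sought for the 3 secreted carriers, as the smallest Euclidean distance between mean-centred log2 profiles over the 4 arrays, among 7796 other measured genes. For Afp these were Cpm, a membrane carboxypeptidase, at a distance of 0.69, Masp1, a complement serine protease, at 0.95, and Tmprss2, a membrane serine protease, at 1.09. For Ttr they were Spink1 at 0.65, Apela, which encodes a small peptide hormone, at 1.54 and Tgfb2 at 1.89. For Rbp4 they were Spint1, a protease inhibitor of epithelia, at 0.52, Mettl7a1 at 0.57 and the tight junction gene Cldn7 at 0.65. Ttr and Spink1 shared the order foregut endoderm 2, foregut endoderm 1, mesoderm/ectoderm 2 and mesoderm/ectoderm 1 from high to low. With 4 arrays such a likeness is a description only.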

How the data were processed

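Per the labels' protocols, RNA went through 2 rounds of linear amplification with biotin labelling, and the series' design text names Affymetrix mouse MOE430 arrays. The authors deposited 1 intensity per probe set, and the same text names GC-RMA and GenePattern for it. The submitters' processing notes list RMA. No version or parameter is given in the sources used here. The intensity scale was read from the values as linear, since they ran from 4.75 to 75547, and log2 was taken here.

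Of 45101 probe sets, 64 Affymetrix controls were left out. GEO's platform annotation gave 1 symbol to 34945 of the rest, several to 932 and none to 9160, and 9 members matched a RefSeq gene of the same symbol by gene identifier. A gene was represented by its probe set with the highest mean. Between 12470 and 13033 probe sets of an array exceeded 5, and only 2 arrays per tissue limit the precision. The tissue difference, foregut endoderm minus mesoderm/ectoderm, was tested with limma 3.58.1 under R 4.3.3 (eBayes on an lmFit model with tissue alone, two-sided) on 13288 probe sets above 5 on at least 2 arrays, with Benjamini-Hochberg adjustment and a threshold of 0.05. The fit was tested on simulated data, which had the same spread for all probe sets in place of their own.

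Same-numbered samples were taken as pairs, as they share a dissection method per the labels' protocols, and over measured probe sets their deviations from the tissue means had a Pearson's r of 0.56. Named genes were all members, plus up to 4 measured genes of each of 6 lists with the same sign in both replicates and the largest mean difference, plus the 3 most similar profiles for Afp, Ttr and Rbp4. Gata4, Gata6, Hnf4a, Alb, Apoe, Apoo, Apool, P4hb, Lpl, Dab2, Slc40a1 and the marker genes were named outside that rule or after their values were seen. The members and lists were chosen with earlier results of these data known.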

Additional observations from a re-analysis of the deposited data

Results flagged for a closer look

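Apoe ran opposite ways in the replicates: foregut endoderm minus mesoderm/ectoderm was 2.83 in replicate 1 and -1.33 in replicate 2 on the log2 scale. With 1 array for each tissue and number, the difference between these values was not tested. Groups of 2 are too small for a test of samples that stand far from their group.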

How the results depend on the processing

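For Afp, Ttr, Rbp4 and Mttp all 47 values under the alternatives kept a positive difference. Some of the 47 could not differ from the main value. A changed filter, the replicate block and 1 probe set per gene leave the difference itself as it was. The mean over probe sets does the same for Rbp4, which has only 1. Limma called 0 probe sets in each fit run: quantile normalization, median centring, a pseudocount of 16, no filter, a filter at 6, 1 probe set per gene, the replicate block and each array left out. The lowest adjusted p lay between 0.0847 without a filter and 0.9996 without foregut endoderm 1. Over these fits limma's adjusted p lay between 0.351 and 0.9996 for Afp, 0.351 and 1 for Ttr, 0.435 and 1 for Mttp and 0.467 and 1 for Rbp4, which was not among the probe sets tested with the filter at 6. With the replicate block the lowest adjusted p was 0.351, an unadjusted p under 0.05 was reached by 968 probe sets on the higher and 358 on the lower side, and no call changed. The median difference of measured probe sets was 0.10 as deposited, -0.02 after quantile normalization and -0.08 after median centring, and member differences moved by less than 0.2 with it.

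The count of 4 genes at least 2-fold higher in both replicates was 2 with a pseudocount of 16, which shrinks low values by construction, and 2 at a 4-fold threshold. The mean over all probe sets of a gene lowered the differences of Afp, Ttr and Mttp to 2.46, 4.75 and 0.70. That mean takes in Afp 1436880_at, at the floor on all 4 arrays, and Mttp 1419399_at, at most 2.483 on any array. It also takes in Ttr 1451580_a_at, with a difference of 0.35 in replicate 1. The count ranged from 3 to 4 with each array left out, and was 3 without foregut endoderm 2 and without mesoderm/ectoderm 1. The number of member probe sets at the floor on all 4 arrays was 4, and 7 with a floor of 0.5 in place of 0.1 log2 units. Values under 5 in mesoderm/ectoderm limit the folds of Afp, Rbp4 and Mttp, and that of Ttr in replicate 1.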
